A study of Mus musculus with 6 samples.

Results

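The DEAH-box RNA helicases examined here are 10 genes, *Dhx8*, *Dhx9*, *Dhx15*, *Dhx16*, *Dhx29*, *Dhx30*, *Dhx33*, *Dhx36*, *Dhx37* and *Dhx38*, in GL261, a mouse glioma cell line that stably expressed the green fluorescent protein plasmid pEGFP-N1. Accessible chromatin was measured by ATACseq, in which a transposase cuts open DNA, in cells kept at 21% O2 and in cells held for 16 h at 1% O2 or at <0.1% O2, with 2 libraries per condition and 6 in all. All cells carried the same plasmid, and the labels do not say whether replicates came from separate cultures, so the spread between replicates may be technical. A promoter peak was any peak within 2000 bp of an annotated start site, and 11 such peaks, 1 for each gene and an additional 1 inside *Dhx30*, were found among 41308 consensus peaks. All 11 were present in all 6 libraries, so they were among the 28432 peaks that could be ranked in every library and the 12959 of these at promoters. The genes were chosen from rank and pileup changes seen earlier in these same libraries, so the values below describe them and no test is attached.

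DEAH-box helicases use ATP to pull on RNA and to take apart RNA duplexes and RNA-protein complexes. Several drive the successive rearrangements of the spliceosome, others act in the assembly of ribosomes or in translation, and some unwind R-loops or G-quadruplexes. R-loops are RNA-DNA hybrids together with the displaced DNA strand, and G-quadruplexes are stacked folds of guanine-rich strands. Many of these helicases are switched on by partner proteins that carry a G-patch, a short glycine-rich stretch.

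At <0.1% O2 the promoter peaks of 7 of the 10 genes were called lower by the rank of their summit height within the library, beside 32.0% of all promoter peaks, that of *Dhx8* was called higher, beside 10.2%, and those of *Dhx16* and *Dhx38* were not called in either direction. By the rank of the fold over local background 4 of the 10 were lower, beside 26.5%, and 4 were lower by summit height where each library was ranked over all of its own peaks, beside 16.0%. The fall was deepest at *Dhx36*, a helicase that unwinds G-quadruplexes, where the summit kept 0.272 of its coverage-scaled height at 21% O2. The 4 helicases of ribosome assembly and translation, *Dhx29*, *Dhx30*, *Dhx33* and *Dhx37*, were all called lower by summit height, as were both helicases of R-loops and G-quadruplexes, *Dhx9* and *Dhx36*, whereas of the 4 spliceosomal helicases *Dhx15* alone was. These groups were drawn with the results known. *Dhx33*, *Dhx37* and *Dhx15* lost their calls where each library was ranked over all of its own peaks. At 1% O2 *Dhx29* and *Dhx36* were called lower by summit height among the peaks ranked in every library, 2 of 10 beside 16.5% of all promoter peaks. Every one of the 11 peaks was still present in both <0.1% O2 libraries.

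The DNA upstream of start sites is shown for 3 peaks called lower at <0.1% O2, *Dhx36*, the internal *Dhx30* peak and *Dhx9*, and for 2 that were not, *Dhx16* and *Dhx8*, so that their letters can be compared. Sequences are from RefSeq on GRCm38.p6 (mm10), run 5′ to 3′ on the strand of the gene, and end at or shortly before the start site. Capitals mark motifs found on either strand, the GC box (GGGCGG) bound by Sp/KLF factors, the ETS core (CCGGAA), the CCAAT box, the core of the hypoxia response element (ACGTG), the E-box (CACGTG, which contains ACGTG on both strands) and the NRF1 half-core (TGCGCA). The stretches are chr3:62507005-62507154 (minus strand), chr9:110101088-110101237 (minus), chr1:153487661-153487810 (minus), chr17:35879628-35879777 (plus) and chr11:101732800-101732949 (plus), in the order given, and that of the internal *Dhx30* peak runs past the end of the peak.
Dhx36: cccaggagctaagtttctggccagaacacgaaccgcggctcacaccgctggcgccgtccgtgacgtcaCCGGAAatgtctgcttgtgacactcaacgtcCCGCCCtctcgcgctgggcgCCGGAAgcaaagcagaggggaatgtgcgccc
Dhx30 internal: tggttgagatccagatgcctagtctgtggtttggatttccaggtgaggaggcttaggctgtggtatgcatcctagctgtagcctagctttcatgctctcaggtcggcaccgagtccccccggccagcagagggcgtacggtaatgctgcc
Dhx9: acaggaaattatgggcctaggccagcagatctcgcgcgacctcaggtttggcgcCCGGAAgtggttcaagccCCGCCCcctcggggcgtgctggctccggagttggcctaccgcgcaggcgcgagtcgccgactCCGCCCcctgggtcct
Dhx16: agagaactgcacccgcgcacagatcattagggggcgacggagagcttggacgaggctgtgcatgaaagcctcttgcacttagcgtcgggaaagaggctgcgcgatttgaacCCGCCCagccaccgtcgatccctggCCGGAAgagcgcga
Dhx8: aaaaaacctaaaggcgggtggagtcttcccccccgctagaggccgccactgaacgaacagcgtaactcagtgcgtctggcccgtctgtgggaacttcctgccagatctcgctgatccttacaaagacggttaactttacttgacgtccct

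The RefSeq table held 10 start windows of 9 of the genes, each from 250 bases before to 50 after the start, and *Dhx38* is missing from it. The ETS core was present in 6 of the 10 windows and in 14.9% of all 32851 windows in the table, and the GC box in 6 of 10 and 35.7%. All 10 windows, at 53.3% to 67.0% GC, lay above the median of 52.7% over all windows. The shares over all windows were not matched for GC content or for open chromatin. The CCAAT box was in 3 of 10 (37.4% of all), the hypoxia response element core in 3 of 10 (19.6%), and the NRF1 half-core (7.76%) and the E-box (7.15%) in 1 of 10 each. The window of *Dhx36* held 1 GC box and 3 ETS cores and that of *Dhx16*, which was not called lower, 1 GC box, 2 ETS cores and 1 CCAAT box, so peaks on both sides of the contrast shared these letters. Of these, the bases printed hold 1 GC box and 2 ETS cores for *Dhx36* and 1 GC box and 1 ETS core for *Dhx16*. The window of *Dhx8* held 1 ETS core, outside the bases printed, and that of the internal *Dhx30* peak held none of the 6 motifs. These matches describe the letters and are not binding sites.

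The files give for each peak a fold of the summit over a local background and its p-value, which together fix the whole number of fragments stacked at the summit, called the summit pileup. The genome coverage recovered in the same way was 2.16 to 2.36 fragments in the normoxic and 2.93 to 3.35 in the hypoxic libraries. Every hypoxic library was thus deeper, and pileups are also given divided by this coverage. Conditions were compared by percentile ranks, which place the value of a peak between 0 and 100 among those of the 28432 shared peaks in its library. A rank says where a peak stands against the others and cannot show a change common to all peaks. A peak was called lower or higher where the ranks of both libraries of a condition lay beyond both reference libraries and the means differed by 10 percentile points or more. The smallest p that an exact permutation test allows for 2 libraries per condition is 0.33, so no p is given. A lower rank can come from fewer cells with an open promoter or from a less open promoter in each cell. It can also come from a rise of other peaks, and these cannot be told apart. By pileup rank at <0.1% O2 the median change was -3.86 points over promoter peaks and 2.95 over the 15473 other ranked peaks. The local background, counted in units of genome coverage, had a median over peaks of 2.36 to 2.39 in the normoxic libraries, 1.96 to 2.09 in those of 1% O2 and 1.84 to 1.88 in those of <0.1% O2. It enters the fold but not the pileup, so both ranks are given. Of 8 markers of glioma and glial cells all 8 had a promoter peak in every library, while 7 of 8 markers of other cell types had none and *Pecam1*, an endothelial marker, had one in 5 libraries.

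By summit pileup rank at <0.1% O2, 7 of 10 members were called lower, beside 32.0% of all promoter peaks, and 1 was called higher, beside 10.2%. The median change of the members was -15.2 percentile points and that of all promoter peaks -3.86. By fold rank at <0.1% O2, 4 members were called lower (26.5% of promoter peaks) and 0 higher (12.0%), with a median of -8.12 against -2.52. At 1% O2 the pileup rank called 2 members lower (16.5%) and 0 higher (11.8%), and the fold rank called 1 lower (16.5%) and 2 higher (11.9%). The last members inside the limit by pileup at <0.1% O2 were *Dhx33*, at -12.5 points, and *Dhx8*, at 10.7, and the first outside were *Dhx38*, at -7.93, and *Dhx16*, at 6.66. By fold the first member outside was *Dhx30*, at -9.97 points. Where each library was ranked over all of its own peaks rather than the shared ones, 4 members were lower and 1 higher by pileup at <0.1% O2, and the promoter peaks were split into 16.0% lower and 15.9% higher in place of 32.0% and 10.2%. The lists held 33006 and 36188 peaks at 21% O2 and 39348 to 43554 in hypoxia. A rank over all peaks of a list also depends on how many weaker peaks that list holds.

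**Figure D1:**
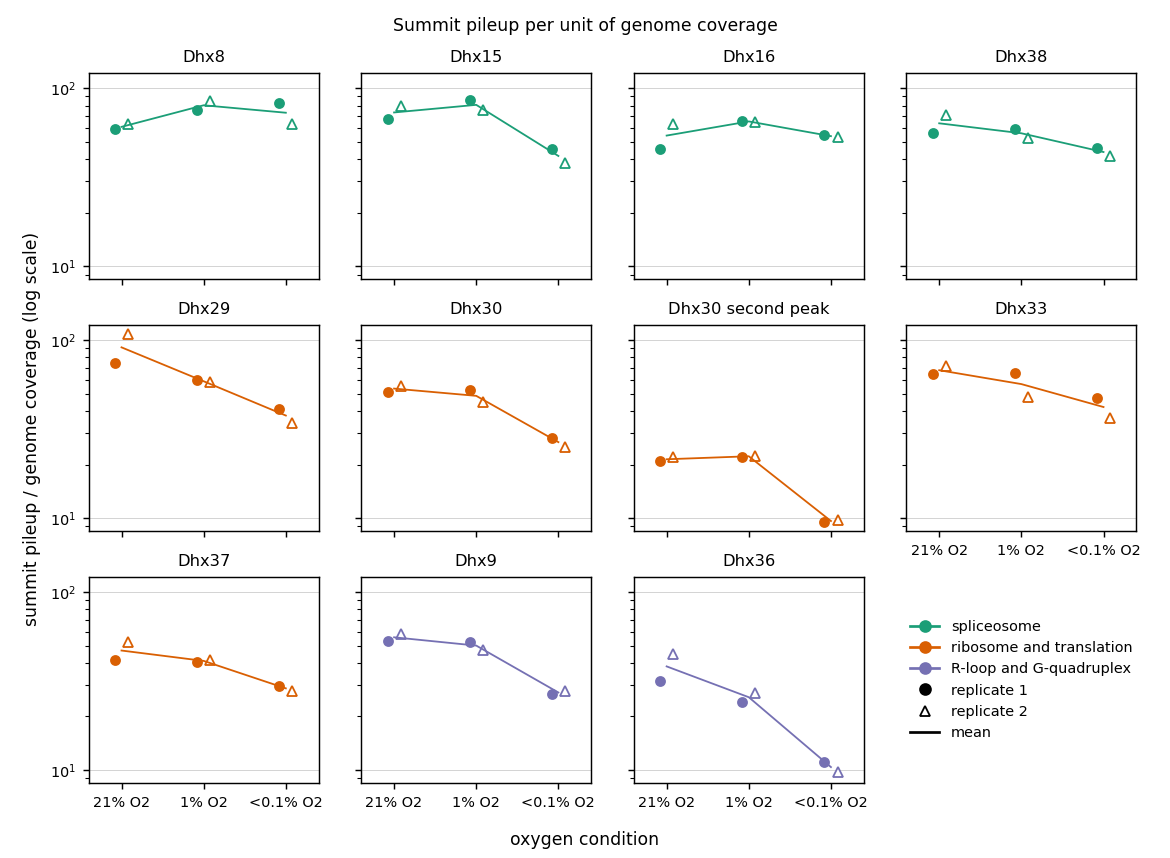
Summit pileup divided by the genome coverage of the library (y axis, log scale) at 21%, 1% and <0.1% O2 (x axis) for the 11 promoter peaks, where filled circles are replicate 1, open triangles replicate 2 and lines join the means of the 2 libraries. The Dhx36 peak goes from 31.5 and 44.9 at 21% O2 to 11.1 and 9.74 at <0.1% O2, while Dhx8 and Dhx16 stay above 45 in all 6 libraries, and the panel titled Dhx30 second peak is the internal peak.

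*Dhx36* encodes a helicase that resolves G-quadruplexes in DNA and RNA. Its promoter peak (chr3:62506573-62507347, 775 bp, minus strand) covers the annotated start site and the DNA on both sides of it. The summit held 68 and 106 fragments at 21% O2, 71 and 81 at 1% O2, then 37 and 31 at <0.1% O2. The exact Poisson 95% intervals of 26.1 to 51.0 and 21.1 to 44.0 at <0.1% O2 lie below those at 21% O2, 52.8 to 86.2 and 86.8 to 128, although the <0.1% O2 libraries were the deeper ones. These intervals cover counting error only. Per unit of coverage the summit went from 38.2 ± 9.51 (SD, n = 2) at 21% O2 to 25.7 ± 1.98 at 1% O2 and 10.4 ± 0.926 at <0.1% O2, so the 3 conditions did not overlap. The ratio of 0.272 at <0.1% O2 compares with a median ratio of 0.776 over all promoter peaks, and 0.147% of promoter peaks had an equal or lower one.

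The pileup rank of *Dhx36* was 54.4 and 61.5 at 21% O2, 30.7 and 40.9 in 1% O2 and 9.0 and 8.60 in <0.1% O2. It was lower at both hypoxia levels, by -22.2 points at 1% O2 and by -49.1 points at <0.1% O2, and by -10.3 and -40.2 points with each library ranked over all of its own peaks. In the ranking of shared peaks 18 of the 12959 promoter peaks, *Dhx36* included, fell as far or farther at <0.1% O2. The fold rank instead stayed at 84.1 and 92.5 at 1% O2, overlapping the 89.5 and 92.8 at 21% O2, and was 29.9 and 28.9 at <0.1% O2. A fall of at least this size, -61.8 points, was seen at 4 promoter peaks, *Dhx36* included. The local background at *Dhx36* was 1.94 and 2.49 times the genome coverage at 21% O2, 1.25 and 1.28 times at 1% O2 and 1.07 and 1.00 times at <0.1% O2. The peak itself did not shrink in length to the same degree, with 881 and 747 bp at 21% O2, 709 and 690 bp at 1% O2 and 866 and 678 bp at <0.1% O2, and its summit lay within 35 bp of the start site in every library.

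*Dhx9*, also called RNA helicase A, unwinds R-loops and RNA-DNA hybrids. Its peak (chr1:153486887-153488039, 1153 bp, minus strand) covers 2 annotated start sites. Its summit held 115 and 137 fragments at 21% O2, 154 and 142 at 1% O2, then 90 and 88 at <0.1% O2, so the counts were lowest in the libraries with the highest coverage. Scaled by coverage it was 55.7 ± 3.42 (SD, n = 2), 50.0 ± 3.65 and 27.3 ± 0.548, a ratio of 0.490 at <0.1% O2. The pileup rank of 77.0 and 72.1 at 21% O2 was 67.0 and 67.9 in 1% O2 and 45.1 and 53.2 in <0.1% O2. Both hypoxic conditions lay below the normoxic libraries, but the change of -7.10 points at 1% O2, which was -9.41 to -4.43 with 1 library left out and smallest without replicate 1 at 21% O2, was too small to be called, while that of -25.4 points at <0.1% O2 was called lower. Over all peaks of each library these were -1.21 and -14.9 points. The fold rank moved up at 1% O2, from 65.9 and 65.1 to 77.6 and 78.9, a change of 12.7 points that was called higher, and down at <0.1% O2, to 48.9 and 58.3, a change of -11.9 points. Without replicate 1 at <0.1% O2 the latter was -7.16 points and not called, nor was it over all peaks of each library, at -5.37 points. The local background of *Dhx9* was 4.62 and 4.54 times the coverage at 21% O2, 3.29 and 2.95 times at 1% O2 and 2.33 and 2.32 times at <0.1% O2, and its part in the fold rank was not tested.

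*Dhx29* encodes a helicase that helps the small ribosomal subunit scan structured leaders of mRNAs. Its peak (chr13:112927012-112928106, 1095 bp, plus strand) also covers a start site of *Mtrex*, an RNA helicase of the nuclear exosome, so the peak cannot be assigned to either gene alone. The summit held 161 and 254 fragments at 21% O2, 174 and 174 at 1% O2, then 138 and 109 at <0.1% O2. Its pileup rank was 88.6 and 91.8, then 72.4 and 76.9, then 66.1 and 63.6, with no overlap between any of the conditions. The change was -15.6 points at 1% O2 and -25.3 points at <0.1% O2, both called lower, and over all peaks of each library it was -8.99 points, not called, and -16.4 points. The coverage-scaled height kept 0.645 and 0.414 of its level at 21% O2. The fold rank went from 98.1 and 98.4 to 84.7 and 92.8 and then to 75.3 and 70.7, with a change of -9.45 points at 1% O2, just short of a call, and of -25.2 points at <0.1% O2, called lower. The former was -13.4 points and called lower without replicate 2 at 1% O2, and -5.36 points without replicate 1.

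*Dhx30* acts in the assembly of mitochondrial ribosomes, and its main peak (chr9:110116692-110117889, 1198 bp, minus strand) covers 6 annotated start sites. The summit held 111 and 131 fragments at 21% O2, 154 and 134 in 1% O2 and 95 and 80 in <0.1% O2. Its pileup rank was 75.7 and 70.3 at 21% O2, 67.0 and 65.2 at 1% O2, then 47.9 and 48.4 at <0.1% O2, a change of -6.90 points that was not called and of -24.9 points that was called lower. Over all peaks of each library these were -0.87 and -14.5 points, and with 1 library left out the change at 1% O2 was -9.39 to -4.10 points, smallest without replicate 1 at 21% O2. The coverage-scaled summit kept 0.50 of its height at <0.1% O2. Its fold rank of 83.3 and 77.4 at 21% O2 was 70.0 and 70.7 at <0.1% O2, without overlap, but the change of -9.97 points was not called. Without replicate 2 at 21% O2 it was -12.8 points, and without replicate 2 at <0.1% O2 -10.1 points, both called lower, but it was -6.97 points without replicate 1 at 21% O2, -5.99 with the GC trend subtracted and -5.00 over all peaks of each library.

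The internal *Dhx30* peak (chr9:110100666-110101173, 508 bp), titled Dhx30 second in the plots, lies inside the gene at the start site of a shorter transcript and is lower than the main one. Its summit held 45 and 52 fragments at 21% O2, 65 and 67 in 1% O2 and 32 and 31 in <0.1% O2. Scaled by coverage it was 21.4 ± 0.855 (SD, n = 2), 22.3 ± 0.127 and 9.65 ± 0.131, so the 1% O2 libraries lay just above the normoxic ones and the <0.1% O2 libraries far below. Its fold rank was 87.1 and 73.7 at 21% O2, 83.4 and 81.4 at 1% O2, then 23.4 and 28.9 at <0.1% O2. A fall of at least the -54.3 points seen here at <0.1% O2 was found at 24 promoter peaks, this one included, and the pileup rank fell by 27.0 points, from 36.4 and 32.0 to 5.64 and 8.60. At <0.1% O2 the local background of this peak stood at the genome coverage itself in both libraries, a ratio of 1.00. The library peaks were 508 and 805 bp long at 21% O2, 658 and 508 bp at 1% O2 and 412 and 349 bp at <0.1% O2, shorter in both <0.1% O2 libraries than in any other. Both *Dhx30* peaks thus lost coverage-scaled height to a like degree, to 0.50 and 0.45, while their fold ranks changed by -9.97 and -54.3 points.

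**Figure D2:**
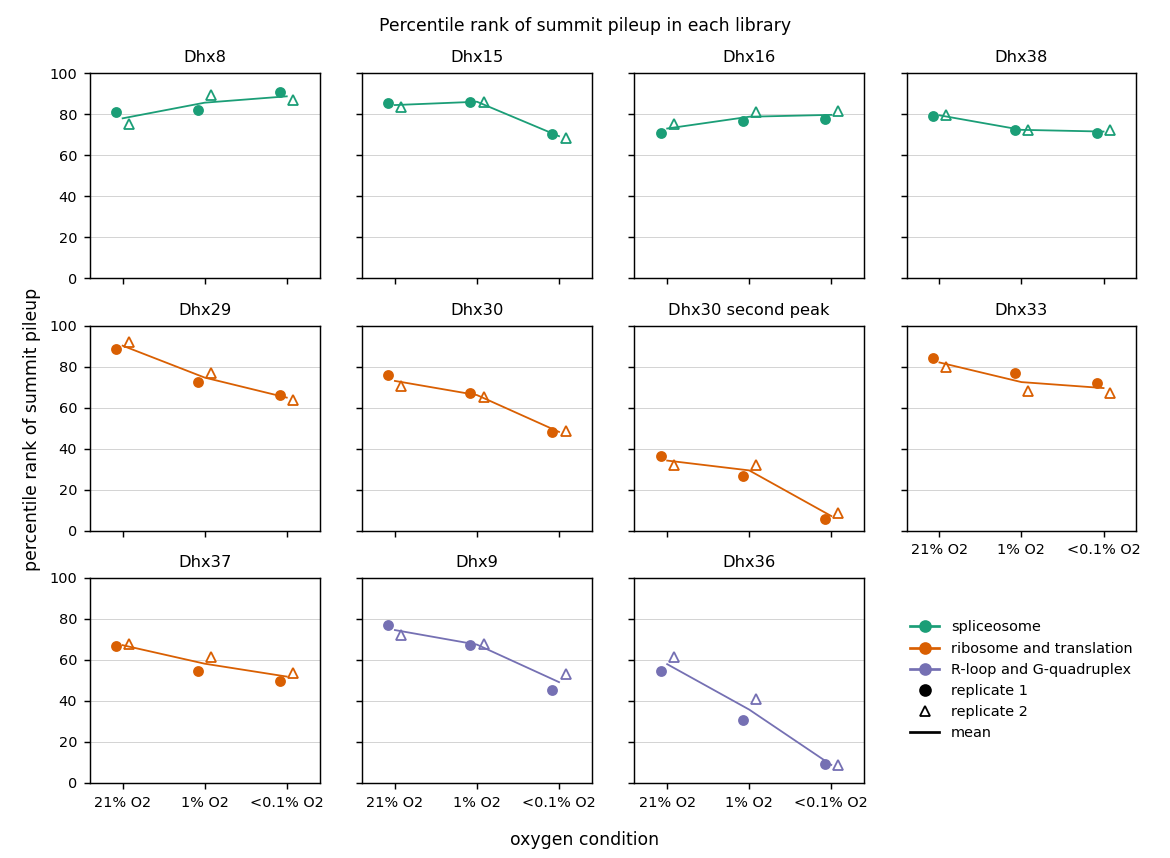
Percentile rank of the summit pileup among the 28432 peaks present in all libraries (y axis, 0 to 100) at each oxygen condition (x axis) for the 11 promoter peaks, with symbols as in the plot of coverage-scaled pileup. Dhx36 ends at 9.0 and 8.60 at <0.1% O2 and the main Dhx30 peak at 47.9 and 48.4, whereas Dhx8 rises to 90.7 and 86.8.

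*Dhx33* and *Dhx37* both act in the making of cytosolic ribosomes, *Dhx37* in that of the small subunit. The *Dhx33* peak (chr11:71003826-71004890, 1065 bp, minus strand) held 139 and 168 fragments at its summit at 21% O2, 192 and 143 in 1% O2 and 159 and 117 in <0.1% O2. Its pileup rank was 84.2 and 79.8, then 76.7 and 68.2, then 72.2 and 66.9, so that both hypoxic conditions lay below the normoxic one and overlapped with each other. The change of -9.58 points at 1% O2 was not called, although it was without replicate 2 at 21% O2 (-11.5 points) or without replicate 1 at 1% O2 (-13.7 points), and it was -5.28 points without replicate 2 at 1% O2. That of -12.5 points at <0.1% O2 was called lower. The call at <0.1% O2 was lost without replicate 1 at 21% O2 (-9.78 points) or without replicate 2 at <0.1% O2 (-9.61 points). The fold rank of *Dhx33* overlapped between the conditions at <0.1% O2, with 85.2 and 85.5 against 85.7 and 77.2. The *Dhx37* peak (chr5:125433683-125434582, 900 bp, minus strand) held 90 and 123 fragments at 21% O2, 119 and 124 at 1% O2, then 99 and 89 at <0.1% O2. Its pileup rank was 66.8 and 67.6, then 54.8 and 61.5, then 49.9 and 53.8, with no overlap between any of the conditions. It was called lower at <0.1% O2, by -15.3 points, and not at 1% O2, at -9.03 points, a value that was -12.3 and called lower without replicate 2 at 1% O2 and -5.58 without replicate 1. Over all peaks of each library the pileup changes at 1% O2 were -3.98 points at *Dhx33* and -1.45 at *Dhx37*. The fold rank of *Dhx37* changed by -12.0 points at <0.1% O2, from 91.9 and 85.5 to 72.3 and 81.0, and this call was lost without replicate 1 at 21% O2 (-8.59 points) or without replicate 1 at <0.1% O2 (-7.60 points). *Dhx33* and *Dhx37* kept 0.621 and 0.613 of their coverage-scaled height at <0.1% O2, beside a median of 0.776 over all promoter peaks, of which 24.9% and 23.7% had an equal or lower ratio.

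*Dhx15* releases the excised intron and the spent spliceosome after splicing and is a well known target of G-patch proteins. Its peak (chr5:52189814-52191205, 1392 bp, minus strand) is the longest of the 11 and also covers the start of the noncoding transcript 9230114K14Rik. The summit held 145 and 187 fragments at 21% O2, 251 and 227 in 1% O2 and 152 and 121 in <0.1% O2. Scaled by coverage it was 73.2 ± 8.59 (SD, n = 2), 80.8 ± 7.0 and 41.7 ± 5.21, so the 1% O2 libraries overlapped the normoxic ones and the <0.1% O2 libraries lay below them. The pileup rank was 85.5 and 83.4 at 21% O2, 86.1 and 86.1 at 1% O2, then 70.3 and 68.4 at <0.1% O2, a change of 1.62 points, not called, and of -15.2 points, called lower. The fold rank was 78.1 and 76.8, then 91.6 and 93.5, then 72.3 and 70.1, called higher at 1% O2 with 15.1 points and not called at <0.1% O2 with -6.26 points. The local background of *Dhx15* was 5.24 and 5.66 times the coverage at 21% O2, 4.78 and 4.10 times at 1% O2 and 3.26 and 2.91 times at <0.1% O2, and its part in the fold rank was not tested.

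*Dhx8*, *Dhx16* and *Dhx38*, which drive successive steps of the spliceosome, were not called lower by summit pileup at <0.1% O2. The *Dhx8* peak (chr11:101732445-101733260, 816 bp, plus strand) held 127 and 148 fragments at 21% O2, 221 and 255 in 1% O2 and 278 and 200 in <0.1% O2. Its pileup rank was 80.9 and 75.1, then 81.9 and 89.4, then 90.7 and 86.8, and it was called higher at <0.1% O2, by 10.7 points, but not without replicate 2 at 21% O2 (7.62 points) or without replicate 1 at <0.1% O2 (8.68 points). The change at 1% O2 was 7.63 points and not called, but it was 11.4 points and called higher without replicate 1 at 1% O2, 3.82 points without replicate 2 at 1% O2 and 4.60 points without replicate 2 at 21% O2. Its fold rank, between 89.6 and 97.3 in all 6 libraries, overlapped between conditions. The *Dhx8* peak was 763 and 599 bp long at 21% O2 and 905 and 826 bp at <0.1% O2, longer in both <0.1% O2 libraries.

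The *Dhx16* peak (chr17:35879499-35880215, 717 bp, plus strand) held 99 and 148 fragments at 21% O2, 192 and 194 at 1% O2, then 183 and 169 at <0.1% O2. Its pileup rank of 71.0 and 75.1 at 21% O2 became 76.7 and 80.9 in 1% O2 and 77.9 and 81.5 in <0.1% O2, a change of 5.75 and 6.66 points that was called at neither level although every hypoxic library lay above both normoxic ones. With 1 library left out these changes were 3.40 to 7.83 and 4.26 to 8.50 points, smallest without replicate 1 at 21% O2. Per unit of coverage its height at <0.1% O2 was 0.992 of that at 21% O2. Its fold rank was 92.0 and 96.0 at 21% O2 and 98.0 to 99.5 in the hypoxic libraries, near the top of the range. The *Dhx38* peak (chr8:109565247-109566251, 1005 bp, minus strand) is shared with *Txnl4b*, a protein of the spliceosome, and held 121 and 168 fragments at 21% O2, 174 and 157 at 1% O2, then 154 and 133 at <0.1% O2. Its pileup rank was 79.1 and 79.8, then 72.4 and 72.4, then 70.8 and 72.3, lower in all hypoxic libraries but by -7.08 and -7.93 points and so not called, and by -1.76 and -2.79 points over all peaks of each library. Its fold rank was called lower at 1% O2, by -10.3 points from 93.2 and 93.3 to 83.4 and 82.6, and not at <0.1% O2, at -4.91 points (-7.46 to -2.25 with 1 library left out). The call at 1% O2 was lost over all peaks of each library (-6.17 points), without replicate 1 at 21% O2 (-9.87 points) or without replicate 2 at 1% O2 (-9.83 points).

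**Figure D3:**
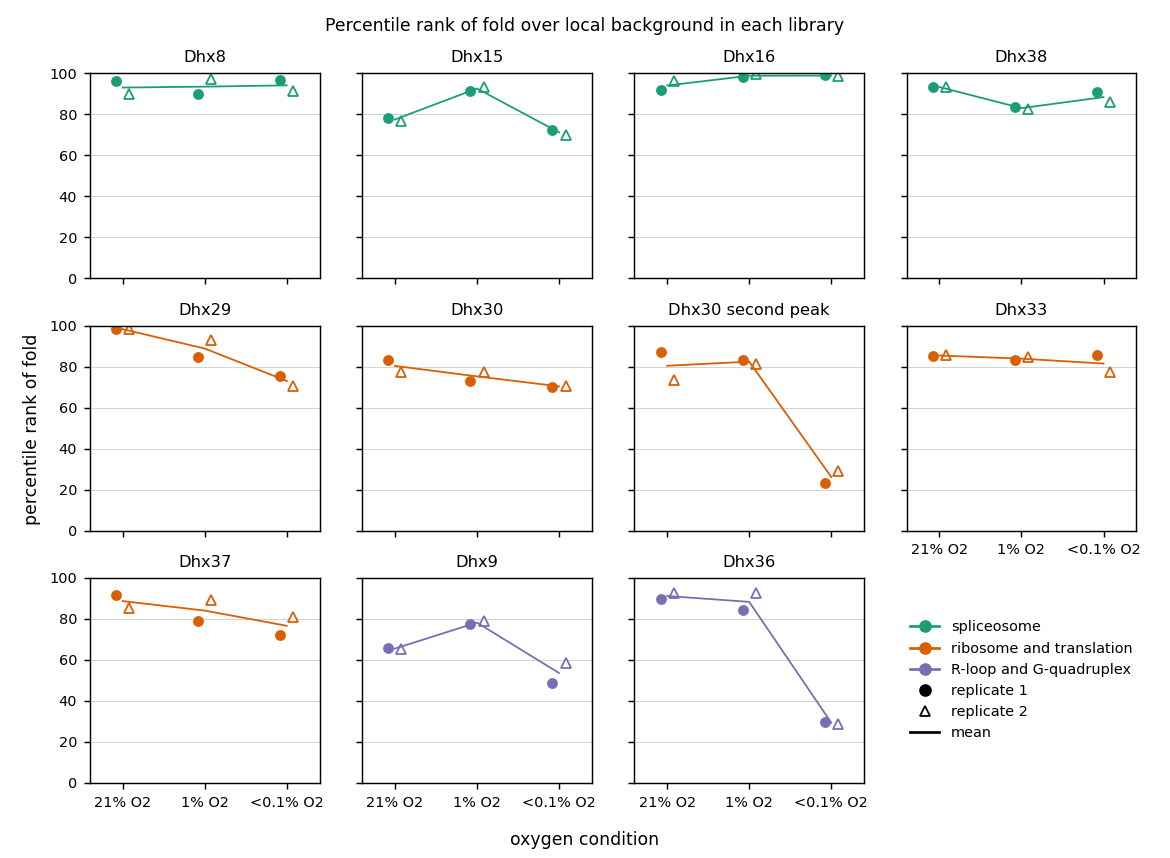
Percentile rank of the fold over local background (y axis, 0 to 100) at each oxygen condition (x axis) for the 11 promoter peaks, with symbols as in the plot of coverage-scaled pileup. Dhx36 and the internal Dhx30 peak drop below 30 at <0.1% O2, Dhx15 and Dhx9 go up at 1% O2 and down at <0.1% O2, and Dhx16 stays above 92 in all 6 libraries.

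Read by role at <0.1% O2, the 4 genes of ribosome assembly and translation were all lower by pileup rank, with a median of -20.1 points and a range of -25.3 to -12.5, beside 32.0% of all promoter peaks called lower. The 4 spliceosomal genes ranged from -15.2 to 10.7 points, with a median of -0.63, and 1 was called in each direction. With each library ranked over all of its own peaks, *Dhx33* (-6.54 points), *Dhx37* (-6.71) and *Dhx15* (-8.62) lost their calls, which left 2 of the 4 genes of ribosomes and translation and 0 of the 4 spliceosomal genes lower, beside 16.0% of all promoter peaks. By fold rank 2 of the 4 genes of ribosomes and translation, both genes of R-loops and G-quadruplexes and 0 of the 4 spliceosomal genes were lower, beside 26.5% of all promoter peaks. Over all peaks of each library the fold calls of *Dhx37* (-7.21 points) and *Dhx9* (-5.37) were lost, which left 1 of 4, 1 of 2 and 0 of 4, beside 17.4%. The groups hold 2 to 4 genes each and were drawn with the results known, so the difference between them is not a tested one.

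**Figure D4:**
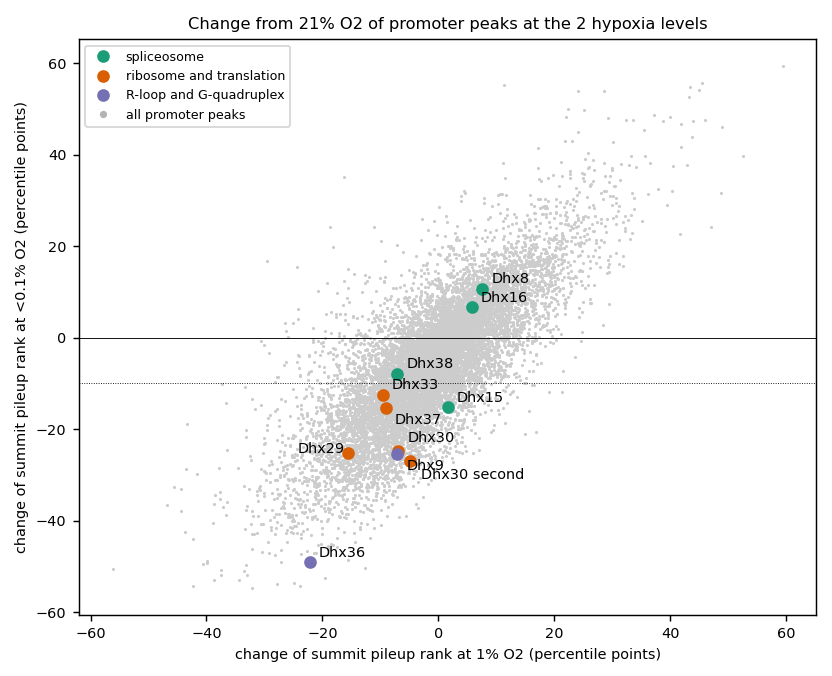
Change of the summit pileup rank from 21% O2, in percentile points, at 1% O2 (x axis) and at <0.1% O2 (y axis) for the 12959 promoter peaks (grey) and the 11 helicase peaks (coloured by role), with the dotted line at -10 points. The axes share the 21% O2 libraries. Dhx36 lies at -22.2 and -49.1, Dhx30 and Dhx9 near -7 and -25, and Dhx8 and Dhx16 above 0 on both axes.

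Against 1% O2 directly, the <0.1% O2 libraries were lower by pileup rank at *Dhx15*, *Dhx30*, *Dhx9* and *Dhx36*, 4 of 10 members beside 21.9% of promoter peaks, and higher at 0 (3.89%). By fold rank 4 of 10 were lower, *Dhx15*, *Dhx29*, *Dhx9* and *Dhx36*, beside 20.5%, and 0 higher (9.14%). The pileup ranks changed by -16.8 points at *Dhx15*, -18.0 at *Dhx30*, -18.3 at *Dhx9* and -27.0 at *Dhx36*, and the fold ranks by -21.4 at *Dhx15*, -15.8 at *Dhx29*, -24.6 at *Dhx9* and -58.9 at *Dhx36*. The deepest of these changes by either rank was at *Dhx36*.

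In base composition the 7 main peaks that were lower by pileup at <0.1% O2 had a GC content of 57.2% to 65.2%, beside 53.9% at *Dhx8*, 55.4% at *Dhx38* and 61.9% at *Dhx16*, and a median of 59.5% over all promoter peaks. The share of promoter peaks called lower by pileup at <0.1% O2 went up with GC content, from 20.6% in the lowest of 4 equal bins to 29.8%, 33.8% and 43.8% in the others. With the trend of GC content subtracted, 7 members remained lower, beside 25.1% of all promoter peaks, and *Dhx16* joined *Dhx8* as higher at 10.7 points, beside 12.5%. In this setting the median of the members was -12.3 points beside -1.17 over all promoter peaks. Within similar GC content *Dhx36*, at 59.7%, changed by -49.1 points and *Dhx15*, at 59.9%, by -15.2, and *Dhx9*, at 62.1%, by -25.4 points against 6.66 at *Dhx16*, at 61.9%. The peaks that were lower were 775 to 1392 bp long in the consensus and the other 3 were 717 to 1005 bp long.

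**Figure D5:**
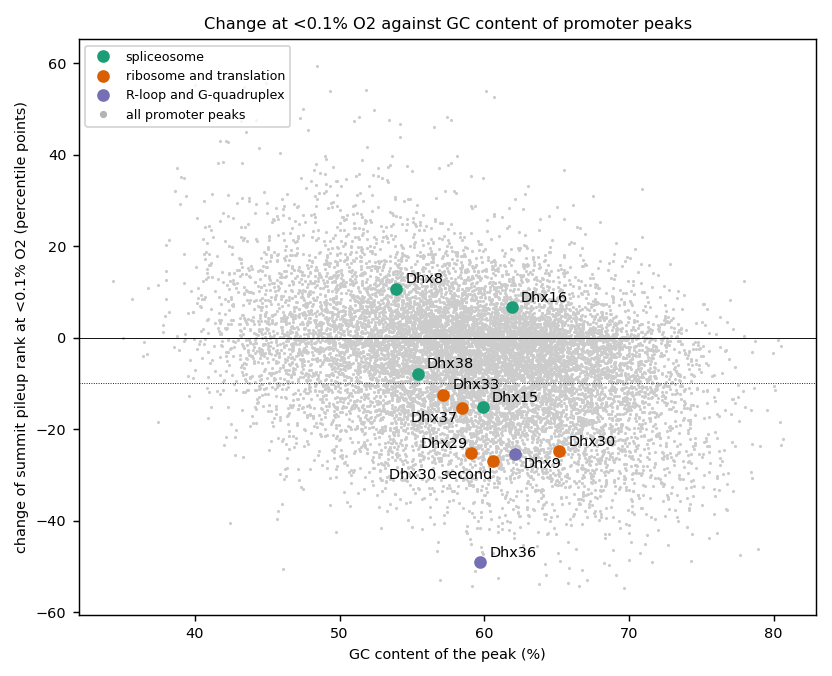
Change of the summit pileup rank at <0.1% O2 from 21% O2 in percentile points (y axis) against the GC content of the peak in percent (x axis) for the 12959 promoter peaks (grey) and the 11 helicase peaks (coloured by role), with the dotted line at -10 points. Dhx16 and Dhx9 sit side by side in GC content, at 61.9% and 62.1%, but at 6.66 and -25.4 points.

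Of 9 other helicases of the DEAH family and its relatives, 7 had a ranked promoter peak, and *Dqx1* and *Tdrd9* had none. By pileup rank at <0.1% O2, 1 of the 7 was lower and 1 higher, with a median of -0.98 points, beside 32.0% and 10.2% of all promoter peaks. The lower one was *Ythdc2*, which binds methylated adenosine in RNA, with a mean rank of 84.1 ± 1.26 (SD, n = 2) at 21% O2 and 57.6 ± 1.57 at <0.1% O2. The higher one was *Dhx58*, also called LGP2, a sensor of viral RNA, which went from 62.5 ± 5.22 to 85.8 ± 0.407 at 1% O2 and 90.5 ± 0.270 at <0.1% O2, and was called higher by both ranks at both hypoxia levels. The next fall was that of *Dhx40*, at -9.33 points and not called by pileup, and the next rise that of *Dhx32*, at 1.43 points. By fold rank 3 of the 7 were lower at <0.1% O2, *Dhx40*, *Dhx57* and *Ythdc2*, at -24.9, -16.1 and -12.1 points, beside 26.5% of all promoter peaks.

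Of 22 genes for G-patch proteins, partners of these helicases, 21 had a ranked promoter peak and *Gpkow* had none. By pileup rank 11 of 21 were lower and 1 higher at <0.1% O2, beside 32.0% and 10.2% of all promoter peaks, with a median of -13.5 points. By fold rank 6 were lower and 2 higher, close to the 26.5% and 12.0% of all promoter peaks, with a median of -3.86 points. The largest falls by pileup were at *Zgpat*, a zinc finger protein with a G-patch, from 80.8 ± 1.88 (SD, n = 2) to 44.9 ± 3.42, and *Aggf1*, an angiogenic factor, from 42.7 ± 1.26 to 15.9 ± 2.63. The largest rises were at *Rbm5*, a splicing regulator, from 49.7 ± 5.18 to 60.1 ± 1.93, and at *Gpank1*, by 8.24 points, which was not called by pileup. At 1% O2, 6 of the 21 were lower by pileup and 0 higher, beside 16.5% and 11.8% of all promoter peaks.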

How the data were processed

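ATACseq of GL261 cells was measured in 6 libraries, 2 per condition. The authors aligned reads with Bowtie2 2.2.5 to mm10 and called peaks in each library with MACS2 2.1.1.2. The deposited lists give each peak's fold (a ratio over local background) and its −log10 p-value and −log10 q-value. Reads were not pooled over replicates, and depth per library is known here only as the recovered genome coverage.

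From the fold and p-value the summit pileup and background were solved for 100% of the peaks. Consensus peaks were replicate overlaps of over 200 bp in a condition, merged over conditions. Start sites came from GENCODE M21, base composition and promoter sequences from RefSeq GRCm38.p6. The main peak of a gene was its ranked promoter peak with the largest mean coverage-scaled pileup, and lists beside the members name the 2 largest falls and rises by pileup rank at <0.1% O2. The members, the lists and the rules were chosen with earlier results of these data known. Calls were tested on simulated data. Alternatives covered overlaps, thresholds, ranked values and peaks, GC content, promoter window, main peak, thinning, a replicate block and each library left out. Counting the internal *Dhx30* peak as an extra member was chosen after seeing the data. Read counts per peak were not used here, so no count test was run. Scripts ran in Python 3.11.15 with scipy 1.17.1, numpy 2.4.6, pandas 2.3.3 and pysam 0.24.0.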

Additional observations from a re-analysis of the deposited data

Results flagged for a closer look

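At 2 promoters the libraries of the 2 hypoxia levels lay on opposite sides of both normoxic libraries, and with 2 libraries per level the difference between levels was not tested. By fold rank, *Dhx15* changed by 15.1 points at 1% O2 and by -6.26 points at <0.1% O2, and *Dhx9* by 12.7 points and -11.9 points. Over all peaks of each library the changes at <0.1% O2 were -1.98 points at *Dhx15* and -5.37 at *Dhx9*. With the GC trend subtracted they were -3.21 and -10.2 points. By summit pileup rank *Dhx15* changed by 1.62 points at 1% O2 and by -15.2 points at <0.1% O2. *Dhx9* changed by -7.10 points by summit pileup rank at 1% O2. With the −log10 q-value ranked, the changes at 1% O2 were 3.85 points at *Dhx15*, not called, and -2.74 points at *Dhx9*. Ranks of <0.1% O2 directly against 1% O2 were called lower at both, by -21.4 points (fold) and -16.8 points (pileup) at *Dhx15* and by -24.6 and -18.3 points at *Dhx9*.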

How the results depend on the processing

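With each library ranked over all of its own peaks, 0 members were lower by fold rank at 1% O2 and 2 at <0.1% O2, with a median change of -3.85 points at <0.1% O2, and 1 and 4 by pileup rank, with medians of -1.33 and -7.67. Of all promoter peaks 6.6% and 17.4% were then lower by fold and 3.64% and 16.0% by pileup. Under this ranking the median over all promoter peaks was 0.10 by fold and 0.02 by pileup at <0.1% O2. Over the other ranked peaks it was 5.43 and 8.08. The lists at 21% O2 were the shortest, with 33006 and 36188 peaks against 39348 to 43554 in hypoxia. At <0.1% O2 *Dhx15*, *Dhx33* and *Dhx37* lost their pileup calls, at -8.62, -6.54 and -6.71 points. With the GC trend subtracted, 4 members were lower by pileup at 1% O2 (16.9% of promoter peaks), and the medians at <0.1% O2 were -5.62 by fold and -12.3 by pileup. With a call at 5 points, 2 members were lower by fold (24.7% of promoter peaks) and 7 by pileup (27.6%) at 1% O2. With a call at 20 points, 0 and 1 were lower at 1% O2 (4.41% and 3.58%), and 2 and 4 at <0.1% O2 (12.4% and 13.1%). With the −log10 q-value ranked in place of the fold, 2 members were lower at 1% O2 (17.1%), with a median of -6.80, and 7 at <0.1% O2 (32.3%), with a median of -14.1, and the change of *Dhx9* at 1% O2 turned to -2.74 points. With the internal *Dhx30* peak counted the median fold change at <0.1% O2 was -9.97, and with pileups thinned to equal coverage the median pileup change at <0.1% O2 was -18.1. The cause of these differences was not tested.

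With 1 library left out in turn, 0 to 1 members were lower by fold at 1% O2 and 2 to 5 at <0.1% O2, where the lowest count came without replicate 1 at <0.1% O2. The medians ranged from -5.16 to 0.80 by fold and -8.95 to -5.73 by pileup at 1% O2, and from -9.60 to -6.33 by fold and -15.5 to -14.2 by pileup at <0.1% O2. With the replicate number as a replicate block, 1, 4, 2 and 7 members were lower (fold at 1% and <0.1% O2, then pileup). The numbers did not pair the samples, with correlations of the replicate differences between conditions of -0.05, -0.04 and 0.03. Of 680 values for single genes under the alternatives, 564 kept their call and moved by less than the replicate spread, 59 moved by more, 28 gained a call, 28 lost one and 1 reversed. Part of this tally was fixed in advance. Counting the internal *Dhx30* peak, the replicate block and the call limits cannot alter how far a single gene moves. Any overlap, the narrower promoter window and the main peak by fold gave the main values again. Leaving out a library of 1 hypoxia level touches the other level only through the set of ranked peaks. The 564 are thus no measure of how robust the calls are.

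Only whole fragments stacked at 1 base are known, so a summit such as that of *Dhx36* at <0.1% O2, with 31 to 37 fragments, is known less well than one of over 100. A change of all peaks together cannot be seen by rank.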
